A study of Mus musculus with 27 samples.

Results

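The genes described here encode the enzymes, membrane proteins and acid pump of the lysosome. They are 51 protein-coding genes of the 54532 genes measured: 28 genes from a list of lysosomal proteins and their transcription factors, all of which were found, and the 23 protein-coding genes whose symbols start with Atp6v, most of which encode subunits of the vacuolar ATPase (V-ATPase). The choice used gene names alone and no measured value. By role, 13 encode enzymes, 8 membrane proteins and transporters, 4 soluble proteins that are not enzymes, 3 transcription factors, 9 the V0 sector of the V-ATPase and 13 its V1 sector. The remaining gene, *Atp6v1fnb*, carries the shared prefix as a neighbor of *Atp6v1f* and encodes no V-ATPase subunit. Of the 51 genes, 45 had a mean of at least 0.5 FPKM (fragments per kilobase of gene, scaled by a factor for each library) over the libraries and were tested.

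The measurements were bulk RNA-seq of mouse embryonic fibroblasts (MEFs) on their way to induced neurons, in 3 genotypes and on 3 days, with 3 libraries per group and 27 in all. The MEFs came from wild-type (WT) embryos, from embryos of the *Per1-/-* line (B6.129-Per1tm1Drw/J) and from embryos of the *Per2-/-* line (B6.129-Per2tm1Drw/J), with heads and hearts removed and tissue of several embryos pooled in each dish. All cells, controls included, carried lentiviruses for doxycycline-driven neuronal reprogramming factors and for the M2rtTA activator. Day 0 cells were collected in serum-containing medium before doxycycline was added, and cells of days 2 and 4 were kept in serum-free N3 medium with doxycycline and bFGF, so that factor induction, loss of serum and time cannot be told apart in the step from day 0 to day 2. Sex was not determined. The labels call the 3 libraries of a group biological replicates but do not say how the cultures were separated, so that p-values measure the spread between these libraries.

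Lysosomes break down proteins, lipids and glycans that arrive by endocytosis, phagocytosis and autophagy. The V-ATPase acidifies them: its cytosolic V1 sector hydrolyzes ATP and turns a rotor in the membrane-bound V0 sector, through which protons pass, and several subunits exist as isoforms with different tissue distributions. Transcription factors of the MiT/TFE family, *Tfeb*, *Tfe3* and *Mitf*, bind E-box sequences in promoters of many lysosomal genes, the so-called CLEAR elements. Fibroblasts, macrophages and neurons all have lysosomes, and in bulk RNA a change in the number of cells of a type cannot be told apart from a change in RNA per cell.

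The promoters are shown because the transcription factors among the 51 genes bind E-box sequences. Such letters are not specific to these factors, and the authors describe the circadian complex CLOCK/BMAL1 as acting through the E-box too. RefSeq windows from 250 bases before to 50 bases after the annotated start (GRCm38.p6) matched 43 of the 51 genes. The E-box CACGTG, searched on both strands, was found in 12 of these 43 genes, or 27.9%, against 8.09% of the 27025 genes with a window. The longer palindrome TCACGTGA, the inner part of the CLEAR element, which contains the E-box, was found in 5 of the 43, or 11.6%, against 1.12%. The 5 genes were *Gla*, *Atp6v1a*, *Mcoln1*, *Atp6v0d1* and *Atp6v0e*, and the other 7 with the E-box were *Lamp1*, *Lgmn*, *Gaa*, *Glb1*, *Naglu*, *Sgsh* and *Atp6v0b*. A match describes the letters of a window and is no evidence that a factor binds there, or of which factor would. Windows were not given for *Asah1*, *Npc1*, *Atp6v0a2*, *Atp6v0d2*, *Atp6v1b2*, *Atp6v1c1*, *Atp6v1g1* and *Atp6v1h*. For the 3 genes with the palindrome wholly before the start, 60 bases of the gene's strand are printed 5′ to 3′ with the palindrome in capitals. It begins 228 bases before the start of *Gla* (chrX:134601196-134601255, minus strand), 132 bases before that of *Atp6v1a* (chr16:44139358-44139417, minus strand) and 46 bases before that of *Mcoln1* (chr8:3500447-3500506, plus strand).
Gla: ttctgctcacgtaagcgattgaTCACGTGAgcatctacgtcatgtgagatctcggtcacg
Atp6v1a: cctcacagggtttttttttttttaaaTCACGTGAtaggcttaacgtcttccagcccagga
Mcoln1: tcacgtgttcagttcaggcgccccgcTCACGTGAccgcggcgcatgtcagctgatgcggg

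Depth was 15815013 to 24264097 fragments on genes per library. The transcripts of the targeted genes were a weak check of the labels, since gene-level values include exons outside a deletion: *Per1* ranged from 3.23 to 4.96 FPKM in *Per1-/-* libraries and from 4.76 to 6.33 in WT, whereas *Per2* ranged from 1.87 to 3.30 in libraries labelled *Per2-/-* and from 0.817 to 1.97 in WT. *Per2* was higher on each day in every library labelled *Per2-/-* than in WT. The transcript thus does not bear out the label, but its level does not test the loss of the protein. The authors report western blots of MEFs in which PER1 or PER2 protein was lost in the respective knockout line. Libraries labelled *Per2-/-* are called by their label throughout. All libraries are labelled induced neurons, day 0 included. The summed level of 10 fibroblast markers was 3516 to 6117 FPKM over all libraries. The neuronal vesicle gene *Snap25* stayed at or below 0.0287 FPKM on day 0 and at 1.30 to 2.65 FPKM on day 4. *Stmn2*, another neuronal marker, had lower group means on day 4 than on day 0. They were 14.7, 7.49 and 14.8 FPKM on day 0 in WT, *Per1-/-* and libraries labelled *Per2-/-*, and 8.07, 5.49 and 7.83 on day 4. The summed level of 16 macrophage markers ranged from 121 to 2015 FPKM, with none of the 16 at 0 in all 3 libraries of any group.

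Most lysosomal genes were abundantly expressed. The median of the 45 tested members was 25.0 FPKM, against 5.59 FPKM over all 14932 tested genes. *Psap*, the precursor of the saposins that help hydrolases reach their lipids, led with a mean of 443 FPKM over the 27 libraries, followed by the membrane proteins *Lamp1* (337 FPKM) and *Laptm4a* (325 FPKM) and by *Grn*, the precursor of the granulins (135 FPKM). *Psap* (357 to 533 FPKM) and *Laptm4a* (226 to 391 FPKM) stayed within narrow ranges. Neighbors in this order often did not differ beyond their spread: *Lamp1* ranged from 232 to 537 FPKM and overlapped both *Psap* and *Laptm4a*. The transcription factors were the lowest group after the rare V-ATPase isoforms, with 7.41 FPKM for *Tfe3*, 2.33 for *Tfeb* and 1.71 for *Mitf*. The widest ranges belonged to *Atp6v0d2* (0.113 to 5.62 FPKM), *Laptm5* (3.19 to 81.7 FPKM) and *Atp6v1g2* (0.310 to 2.83 FPKM). The plot of levels shows the 45 genes in order.

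**Figure D1:**
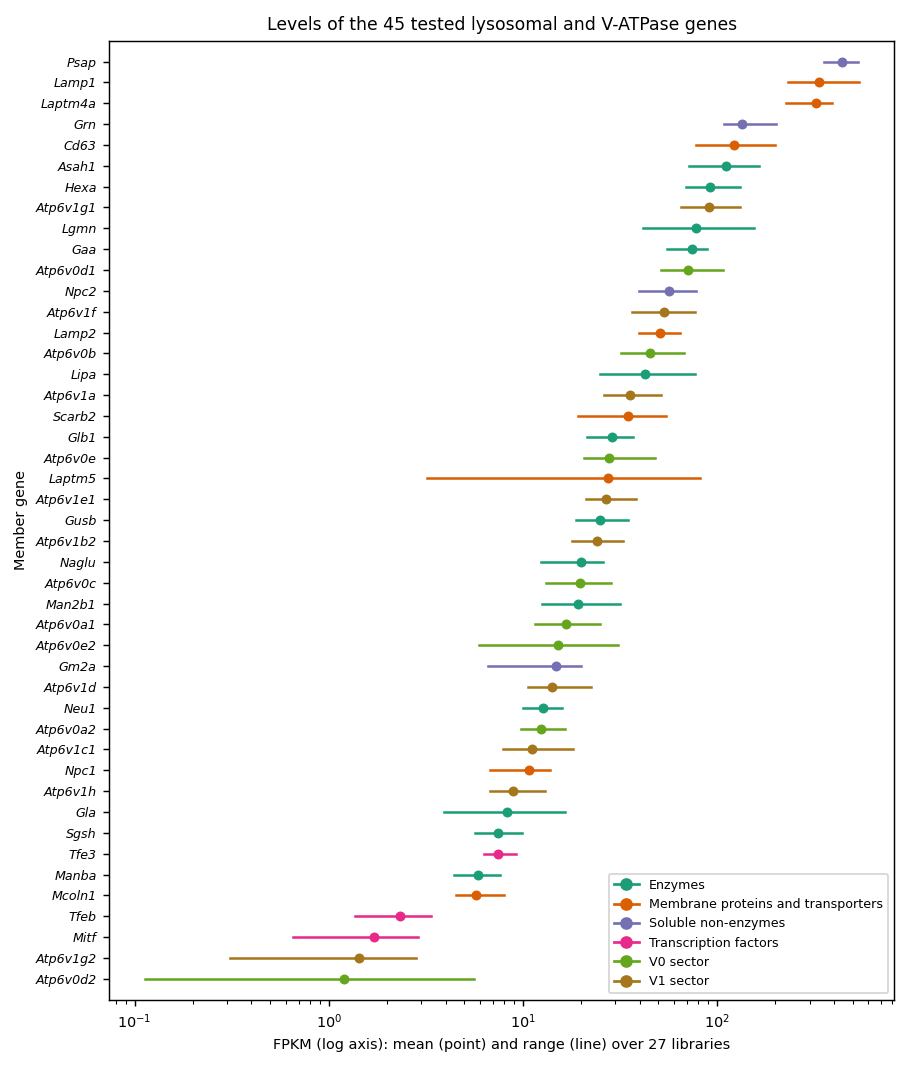
Expression of the 45 tested members on a logarithmic FPKM axis, each point being the mean and each line the lowest to highest value over 27 libraries, colored by role. *Psap* is highest with a mean of 443 FPKM, *Atp6v0d2* is lowest with 1.20 FPKM, and *Atp6v0d2*, *Laptm5* and *Atp6v1g2* have the longest lines.

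The 6 members below the minimum were isoforms known from other tissues and *Atp6v1fnb*. *Atp6v0a4*, the a4 subunit of kidney and inner ear, reached 0.301 FPKM, from at most 29 fragments. *Atp6v1b1*, the B1 subunit of the same tissues, reached 0.182 FPKM and was at 0 in 8 libraries, and *Atp6v1c2* reached 0.173 FPKM. *Atp6v1e2*, a testis isoform of the E subunit, had fragments in 1 library, as did *Atp6v1g3*, the kidney isoform of the G subunit. *Atp6v1fnb* had fragments in 4 libraries. Counts this low allow no comparison between groups.

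The first question is what happened to these genes in the first 2 days of reprogramming. On the deposited scale most V-ATPase subunits were lower on day 2 than on day 0 in all genotypes, the isoforms *Atp6v0e2* and *Atp6v1g2* rose, and the enzymes stayed near their day 0 levels, with *Gla* the exception. Genes were called where the adjusted p did not exceed 0.05 and the log2 fold change was 0.58 or more in either direction (limma, Benjamini-Hochberg adjustment over the 14932 tested genes). In WT libraries, 7 of the 45 members were called higher, beside 20.8% of all tested genes, and 13 lower, beside 19.7%. *Per1-/-* libraries had 7 members higher (20.8% of all genes) and 6 lower (18.8%), and libraries labelled *Per2-/-* had 4 higher (18.7%) and 11 lower (16.8%). The median log2 fold change of the 45 members was -0.30 in WT, -0.13 in *Per1-/-* and -0.37 in libraries labelled *Per2-/-*, and that of all tested genes was -0.01 in each. In all 3 genotypes 3 members were called higher (*Scarb2*, *Atp6v0e2* and *Atp6v1g2*) and 6 lower (*Gla*, *Cd63*, *Lamp1*, *Atp6v0c*, *Atp6v1c1* and *Atp6v1d*).

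The scale matters for these counts. The deposited FPKM were not scaled to depth alone. Their divisor in each library was proportional to a size factor, the median ratio of its fragments to their geometric mean over libraries. A median change near 0 over all genes is therefore largely built into the deposited scale. The FPKM of a library summed to 333295 to 374624 on day 0 and to 261289 to 289211 on day 2, and rescaling every library to a common sum (TPM) moved the median of all genes by 0.42, 0.38 and 0.32 on the log2 scale in WT, *Per1-/-* and libraries labelled *Per2-/-*. On that scale 11, 12 and 8 members were called higher, beside 37.6%, 35.9% and 31.2% of all genes, and 2, 2 and 3 lower, beside 8.38%, 7.94% and 8.49%. *Gla* and *Cd63* were called lower and *Scarb2*, *Atp6v0e2* and *Atp6v1g2* higher on both scales in all genotypes, whereas *Lamp1*, *Atp6v0c*, *Atp6v1c1* and *Atp6v1d* were called lower on the deposited scale only. In the account that follows, rose, fell, higher and lower refer to the deposited scale, and values on the common-sum scale are given beside the deposited ones where a call differs.

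**Figure D2:**
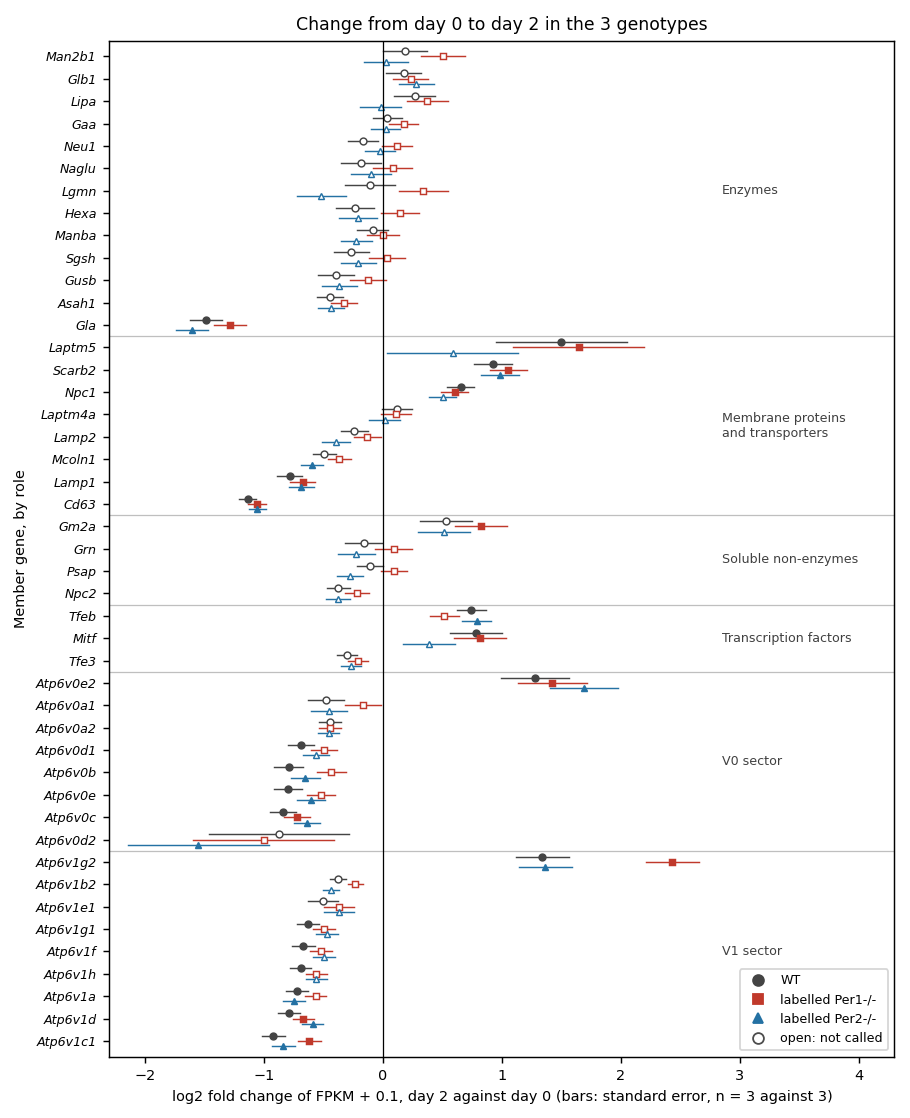
Log2 fold change of FPKM + 0.1 from day 0 to day 2 for the 45 tested members, grouped by role, with standard errors as bars and n = 3 against 3 libraries. Filled symbols are called genes. V-ATPase subunits other than *Atp6v0d2*, *Atp6v0e2* and *Atp6v1g2* lie between -0.92 and -0.17 on this deposited scale, *Atp6v0e2* and *Atp6v1g2* lie between 1.28 and 2.43, and *Gla* is the lowest enzyme.

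Most V-ATPase genes had changes of one sign. Of its 17 tested subunit genes, 15 had a negative log2 fold change in every genotype on the deposited scale, and 10 were called lower in WT (beside 19.7% of all genes), 3 in *Per1-/-* (18.8%) and 7 in libraries labelled *Per2-/-* (16.8%). The count in *Per1-/-* was near that of all genes. The median over the 17 was -0.69, -0.50 and -0.56. On the common-sum scale 0, 0 and 1 of them were called lower, beside 8.38%, 7.94% and 8.49% of all genes. The medians there were -0.26, -0.10 and -0.23, where the median of all genes was 0.42, 0.38 and 0.32. Rescaling shifts all genes of a library alike, so that the distance to the median of all genes does not depend on the scale, whereas the calls did. The 2 subunits of the other sign, *Atp6v0e2* and *Atp6v1g2*, were called higher in every genotype on both scales.

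Among the subunits called lower in all genotypes, *Atp6v1c1* encodes the C subunit, which holds V1 onto V0. On day 0 it stood at 17.1, 15.5 and 16.7 FPKM in WT libraries, 12.6, 15.4 and 16.6 in *Per1-/-* libraries and 18.1, 14.2 and 13.8 in libraries labelled *Per2-/-*. Day 2 brought it to 8.49, 8.62 and 8.75 FPKM in WT libraries, 9.9, 8.97 and 9.96 in *Per1-/-* libraries and 8.68, 8.4 and 8.38 in libraries labelled *Per2-/-*. The groups did not overlap between the days in any genotype, with log2 fold changes of -0.92 ± 0.10, -0.62 ± 0.10 and -0.84 ± 0.10 (SE) and adjusted p-values of 6.82e-08, 1.31e-05 and 3.01e-07. The call in *Per1-/-* was lost without *Per1-/-* day 0 replicate 3 (-0.54) or day 2 replicate 2 (-0.57), and on the common-sum scale the changes were -0.49, -0.23 and -0.51. By day 4 its values were 9.11, 9.05 and 9.29 FPKM in WT libraries, 10.2, 8.72 and 8.95 in *Per1-/-* libraries and 8.74, 7.89 and 8.29 in libraries labelled *Per2-/-*, and the changes from day 2 of 0.09, -0.05 and -0.03 were not called. *Atp6v1c2*, the other C isoform, was below the minimum, so that *Atp6v1c1* supplied nearly all C subunit transcript.

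*Atp6v0c* encodes the proteolipid of the rotor ring that carries the protons. Its day 0 values were 25.9, 27 and 25.4 FPKM in WT libraries, 24.3, 27.9 and 28.4 in *Per1-/-* libraries and 23.2, 21.8 and 25.2 in libraries labelled *Per2-/-*. On day 2 they were 14.9, 14.1 and 14.7 FPKM in WT libraries, 15.5, 15.5 and 17.6 in *Per1-/-* libraries and 14.9, 15.8 and 14.3 in libraries labelled *Per2-/-*. No day 2 library reached a day 0 library of its genotype, and the log2 fold changes were -0.84 ± 0.11, -0.72 ± 0.11 and -0.64 ± 0.11 (adjusted p = 1.49e-06, 1.1e-05 and 4.76e-05). On the common-sum scale the differences were -0.41, -0.33 and -0.31, and none was called. Day 4 values were 19.2, 19.1 and 18.5 FPKM in WT libraries, 22.2, 17 and 20.1 in *Per1-/-* libraries and 13.1, 18.7 and 18.5 in libraries labelled *Per2-/-*. The files hold 2 pseudogenes named for *Atp6v0c*, and reads of near-identical copies can be split between them and the gene.

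The peripheral stalk and the catalytic head are given by their isoform sets. The E subunit came almost wholly from *Atp6v1e1*, with 36.7, 30.6 and 30.2 FPKM in WT libraries, 28.5, 29.9 and 35.7 in *Per1-/-* libraries and 38.3, 28.8 and 28.3 in libraries labelled *Per2-/-* on day 0. Its day 2 values were 21.1, 22.1 and 25.6 FPKM in WT libraries, 25.2, 23.2 and 24.3 in *Per1-/-* libraries and 22.6, 27.1 and 23.6 in libraries labelled *Per2-/-*. On day 4 they were 24.2, 22.6 and 27.2 FPKM in WT libraries, 27, 24 and 23.7 in *Per1-/-* libraries and 22, 27.8 and 21.6 in libraries labelled *Per2-/-*. Day 2 lay below day 0 without overlap in every genotype, and the log2 fold changes of -0.50, -0.37 and -0.37 were under the minimum size for a call. With a common sum they were -0.07, 0.03 and -0.04.

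The B subunit of the head came from *Atp6v1b2*, with 24.5, 24.5 and 24.8 FPKM in WT libraries, 24.7, 23.9 and 25.1 in *Per1-/-* libraries and 26.9, 24 and 26.3 in libraries labelled *Per2-/-* on day 0. Day 2 values were 18.9, 17.8 and 20.1 FPKM in WT libraries, 20.4, 20.8 and 21.6 in *Per1-/-* libraries and 18.4, 19.2 and 19.2 in libraries labelled *Per2-/-*. Those of day 4 were 29.1, 27.4 and 28.2 FPKM in WT libraries, 32.6, 28.3 and 28.1 in *Per1-/-* libraries and 26.6, 25.7 and 23 in libraries labelled *Per2-/-*. It was lowest on day 2 and highest on day 4 in WT and *Per1-/-* libraries, with log2 fold changes of -0.38, -0.23 and -0.44 from day 0 to day 2 (0.05, 0.16 and -0.11 on the common-sum scale) and 0.57, 0.50 and 0.40 from day 2 to day 4. The adjusted p-values of the second step were 3.78e-05, 0.000216 and 0.00155, but each change was under the minimum size. Of the other V1 genes, *Atp6v1a*, the catalytic A subunit, had log2 fold changes of -0.72, -0.57 and -0.75 from day 0 to day 2 and was called in WT and in libraries labelled *Per2-/-*, but not on the common-sum scale (-0.29, -0.17 and -0.42). *Atp6v1d*, the central stalk, was called in all genotypes at -0.79, -0.67 and -0.59, and the call in libraries labelled *Per2-/-* was lost without day 0 replicate 1 (-0.51), day 2 replicate 1 (-0.56) or day 2 replicate 3 (-0.58). *Atp6v1f* at -0.67, -0.52 and -0.50 and *Atp6v1h*, the regulatory H subunit, at -0.69, -0.56 and -0.56 were called in WT only, a difference between genotypes that the interaction test did not call. None of *Atp6v1d* (-0.36, -0.28 and -0.26), *Atp6v1f* (-0.24, -0.13 and -0.17) and *Atp6v1h* (-0.26, -0.17 and -0.23) was called on the common-sum scale.

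The a subunits form the channels for protons and set where the pump goes. *Atp6v0a1* had 15.8, 20.5 and 16.8 FPKM in WT libraries, 18.5, 13.1 and 19.2 in *Per1-/-* libraries and 22.2, 17.6 and 17.4 in libraries labelled *Per2-/-* on day 0. Its values were 11.5, 12 and 14.4 FPKM in WT libraries, 15.6, 13.2 and 15.8 in *Per1-/-* libraries and 13.3, 15.3 and 12.9 in libraries labelled *Per2-/-* on day 2. Day 4 brought 16.3, 14.8 and 19.6 FPKM in WT libraries, 25, 18.4 and 22 in *Per1-/-* libraries and 16.5, 17.3 and 16.1 in libraries labelled *Per2-/-*. The groups of days 0 and 2 overlapped in *Per1-/-* libraries, and no change was called. The log2 fold changes from day 0 to day 2 were -0.48, -0.17 and -0.46, and -0.05, 0.23 and -0.13 on the common-sum scale.

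*Atp6v0a2*, the Golgi and endosome isoform, stood at 14.7, 15.3 and 16.2 FPKM in WT libraries, 16.5, 13.2 and 14.6 in *Per1-/-* libraries and 15.4, 15.6 and 13.6 in libraries labelled *Per2-/-* on day 0. On day 2 its values were 11.5, 11.6 and 10.7 FPKM in WT libraries, 10.8, 10.3 and 11.2 in *Per1-/-* libraries and 10.9, 10.4 and 11 in libraries labelled *Per2-/-*. They were 12.1, 11.1 and 10.7 FPKM in WT libraries, 10.2, 11.2 and 10.3 in *Per1-/-* libraries and 12.9, 9.77 and 11.7 in libraries labelled *Per2-/-* on day 4. From day 0 to day 2 the log2 fold changes were -0.45, -0.45 and -0.46, alike in the 3 genotypes and under the minimum size. The a3 isoform is encoded by *Tcirg1*, which the name rule leaves out. It held 36.1 to 40.6% of the summed a subunit FPKM in WT on day 0 and 31.6 to 36.1% on day 2, and *Atp6v0a1* held 30.6 to 36.6% and 31.8 to 39.3%. The 3 isoforms thus contributed comparable amounts, and *Tcirg1* was called lower from day 0 to day 2 in all genotypes on the deposited scale (-0.73, -0.58 and -0.81) and in none on the common-sum scale (-0.30, -0.19 and -0.48).

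Within the e and G pairs the isoforms had changes of opposite sign, and a ratio within a library does not depend on the scale of libraries. *Atp6v0e*, the common isoform of the small e subunit of V0, stood at 48.2, 38.1 and 36.7 FPKM in WT libraries, 32.5, 31.5 and 39.1 in *Per1-/-* libraries and 43.9, 31.8 and 30.3 in libraries labelled *Per2-/-* on day 0. On day 2 it was at 23.2, 23.4 and 23.6 FPKM in WT libraries, 25.5, 22.6 and 23.5 in *Per1-/-* libraries and 23.3, 23.4 and 22 in libraries labelled *Per2-/-*. Values on day 4 were 22.6, 24.3 and 23.2 FPKM in WT libraries, 24.3, 20.6 and 23 in *Per1-/-* libraries and 25.2, 22.4 and 21.8 in libraries labelled *Per2-/-*. All day 2 libraries lay below all day 0 libraries, with log2 fold changes of -0.80, -0.52 and -0.60, called in WT and in libraries labelled *Per2-/-* on the deposited scale. The second of these calls was lost without day 0 replicate 1 (-0.44) or day 2 replicate 3 (-0.57) of that genotype, and neither was made on the common-sum scale (-0.36, -0.12 and -0.27).

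*Atp6v0e2*, an isoform best known from brain (chromosome 6, 48537615 to 48541801), went the other way. It began at 8.39, 5.93 and 8.92 FPKM in WT libraries, 6.14, 7.41 and 9.73 in *Per1-/-* libraries and 6.63, 8.89 and 6.05 in libraries labelled *Per2-/-*. By day 2 it was at 15.2, 16.2 and 26.2 FPKM in WT libraries, 23.1, 19.8 and 19.1 in *Per1-/-* libraries and 17.1, 31 and 23.2 in libraries labelled *Per2-/-*. Day 4 values were 13.7, 14.7 and 22.5 FPKM in WT libraries, 16.7, 16 and 18.1 in *Per1-/-* libraries and 10.6, 24.9 and 12.3 in libraries labelled *Per2-/-*. Every day 2 library lay above every day 0 library, and the log2 fold changes were 1.28 ± 0.29, 1.42 ± 0.29 and 1.69 ± 0.29 (adjusted p = 0.000657, 0.000236 and 4.24e-05). The share of *Atp6v0e2* in the summed FPKM of the pair was 15.9 ± 3.19% (SD, n = 3) in WT on day 0 and 44.4 ± 7.16% on day 2. It went from 18.3 ± 2.13% to 46.4 ± 1.36% in *Per1-/-* and from 17.2 ± 4.38% to 50.2 ± 7.39% in libraries labelled *Per2-/-*. On day 4 the shares were 41.6 ± 6.68%, 42.8 ± 1.86% and 39.4 ± 11.9%. The log2 ratio of the pair rose by 2.12 on average over genotypes from day 0 to day 2 (two-sided exact permutation of days within genotypes, p = 0.00025, the smallest that 8000 assignments allow, adjusted p = 0.0005 over 6 tests), and its difference from day 2 to day 4 was -0.34 (exact p = 0.0985). The permutation did not pair libraries by replicate number, and the share was lower on day 4 than on day 2 in 9 of 9 same-numbered pairs.

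The G subunit of the stalk showed the same kind of shift at a far lower level. *Atp6v1g1*, the ubiquitous isoform, had 127, 118 and 118 FPKM in WT libraries, 100.4, 122 and 131 in *Per1-/-* libraries and 104, 104 and 107 in libraries labelled *Per2-/-* on day 0. It had 78, 74.9 and 81.8 FPKM in WT libraries, 73, 88.3 and 88.1 in *Per1-/-* libraries and 76.9, 74.6 and 75.6 in libraries labelled *Per2-/-* on day 2. On day 4 it had 77.1, 83.7 and 85.1 FPKM in WT libraries, 81, 86.9 and 89.1 in *Per1-/-* libraries and 65.1, 82.2 and 73.2 in libraries labelled *Per2-/-*. Day 2 lay below day 0 without overlap in each genotype, and the change was called in WT only, at -0.63, -0.50 and -0.47, and in no genotype on the common-sum scale (-0.19, -0.10 and -0.14).

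*Atp6v1g2*, the neuronal isoform (chromosome 17, 35233660 to 35238767), had 0.775, 0.385 and 0.616 FPKM in WT libraries, 0.412, 0.31 and 0.351 in *Per1-/-* libraries and 0.588, 0.761 and 1.04 in libraries labelled *Per2-/-* on day 0. Day 2 values were 1.4, 1.36 and 2.15 FPKM in WT libraries, 2.12, 2.19 and 2.83 in *Per1-/-* libraries and 2.11, 2.33 and 2.05 in libraries labelled *Per2-/-*. Those of day 4 were 1.45, 1.81 and 1.9 FPKM in WT libraries, 1.78, 1.61 and 2.05 in *Per1-/-* libraries and 1.66, 1.54 and 1.16 in libraries labelled *Per2-/-*. These levels rested on 12 to 141 fragments per library. All day 2 libraries were above all day 0 libraries, with log2 fold changes of 1.34 ± 0.22, 2.43 ± 0.22 and 1.37 ± 0.22 (adjusted p = 2.91e-05, 1.6e-08 and 2.79e-05). With a pseudocount of 1 in place of 0.1, which weighs such low values less, they were 0.72, 1.31 and 0.82 and still called. The larger change in *Per1-/-* came with the lowest day 0 values, and the difference from WT, 1.09 on the log2 scale, had an adjusted p of 1. The share of *Atp6v1g2* in the G subunit FPKM went from 0.484 ± 0.143% to 2.04 ± 0.457% in WT, from 0.310 ± 0.0857% to 2.78 ± 0.345% in *Per1-/-* and from 0.75 ± 0.201% to 2.78 ± 0.213% in libraries labelled *Per2-/-*. The log2 ratio of *Atp6v1g2* to *Atp6v1g1* rose by 2.44 (exact permutation p = 0.00025, adjusted p = 0.0005) and then changed by -0.32 from day 2 to day 4 (exact p = 0.022, adjusted p = 0.0264). *Atp6v1g1* thus remained the main G isoform on all days.

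Summed neuronal markers moved with these isoforms: the 10 genes totaled 47.3 to 106 FPKM on day 0, 111 to 161 on day 2 and 122 to 217 on day 4, and 5 or 6 of the 9 tested were called higher and 1, 0 and 1 lower from day 0 to day 2 in WT, *Per1-/-* and libraries labelled *Per2-/-*. Their part in the isoform shifts was not tested. The marker called lower was *Stmn2*, and *Gap43* had negative log2 fold changes that were not called. From day 2 to day 4, 5 of the 9 were again called higher in each genotype, while *Atp6v0e2* and *Atp6v1g2* were not.

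**Figure D3:**
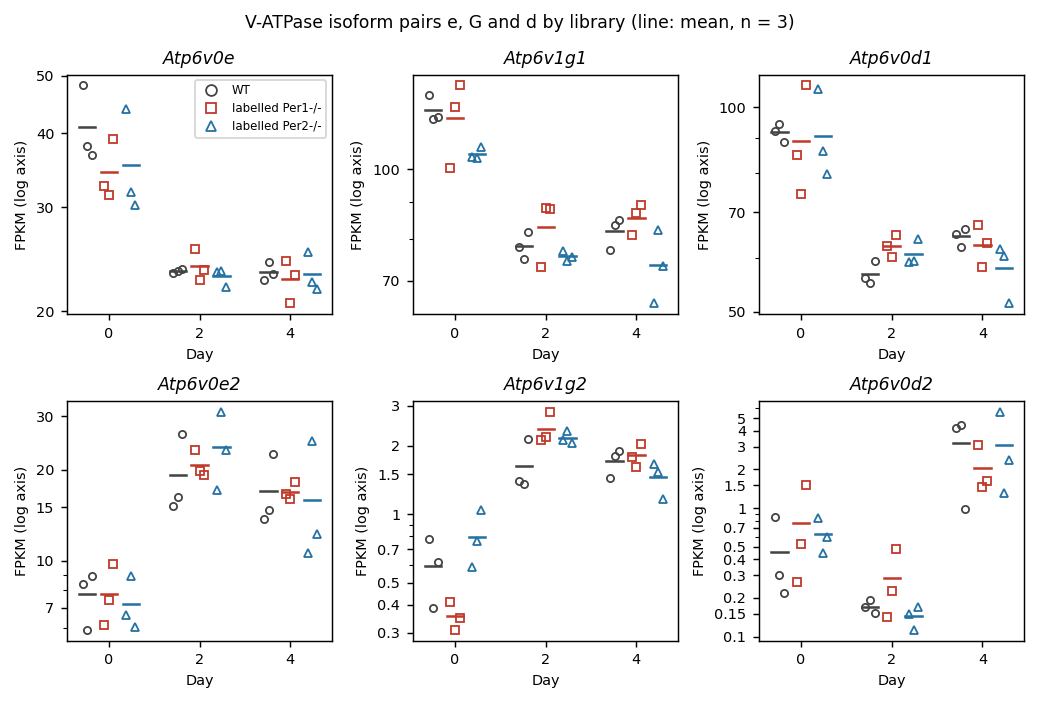
FPKM on logarithmic axes of the V-ATPase isoform pairs e, G and d in each of the 27 libraries by day, with a line at the mean of each group of 3. *Atp6v0e* and *Atp6v1g1* are lower on day 2 than on day 0, *Atp6v0e2* and *Atp6v1g2* are higher on day 2, and *Atp6v0d2* has its lowest means on day 2 and its highest on day 4, when it spans 0.985 to 5.62 FPKM.

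Few enzymes passed the test from day 0 to day 2 on the deposited scale. Of 13, 1 was called lower in each genotype on the deposited scale, beside 19.7%, 18.8% and 16.8% of all genes. None was called higher, beside 20.8%, 20.8% and 18.7%. The median log2 fold change of the 13 was -0.17 in WT, 0.12 in *Per1-/-* and -0.21 in libraries labelled *Per2-/-*. On the common-sum scale 3, 4 and 1 of the 13 were called higher, beside 37.6%, 35.9% and 31.2% of all genes. In each genotype 1 was called lower on that scale, beside 8.38%, 7.94% and 8.49%. *Glb1*, beta-galactosidase (0.61, 0.63 and 0.61), was called higher there in all genotypes, *Lipa* (0.70, 0.77 and 0.31) and *Man2b1* (0.62, 0.90 and 0.35) in WT and *Per1-/-*, and *Lgmn* (0.33, 0.74 and -0.19) in *Per1-/-*. The enzyme called lower was *Gla*, alpha-galactosidase A, which removes terminal galactose from globosides (chromosome X, 134588149 to 134601125). Its day 0 values were 13.4, 13.2 and 14.3 FPKM in WT libraries, 15.2, 11.5 and 16.5 in *Per1-/-* libraries and 14.4, 14.7 and 12.8 in libraries labelled *Per2-/-*. On day 2 they were 5.01, 4.24 and 5.22 FPKM in WT libraries, 6.0, 5.32 and 6.01 in *Per1-/-* libraries and 4.27, 4.43 and 4.85 in libraries labelled *Per2-/-*. By day 4 they were 5.48, 5.11 and 6.01 FPKM in WT libraries, 8.35, 6.1 and 7.07 in *Per1-/-* libraries and 5.15, 3.94 and 5.43 in libraries labelled *Per2-/-*. Every library of days 2 and 4 lay below every day 0 library. The log2 fold changes were -1.49 ± 0.13, -1.29 ± 0.13 and -1.61 ± 0.13 (adjusted p = 9.6e-09, 7.72e-08 and 4.13e-09), and -1.07, -0.91 and -1.29 on the common-sum scale, where *Gla* was also called in all genotypes. *Gla* is the member with a TCACGTGA match whose level changed most, and the other 4 with that match, *Atp6v1a*, *Atp6v0e*, *Atp6v0d1* and *Mcoln1*, had log2 fold changes between -0.80 and -0.37 on the deposited scale and between -0.42 and 0.02 on the common-sum scale.

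*Hexa*, the alpha subunit of the hexosaminidase that degrades GM2 ganglioside, illustrates the other enzymes. It stood at 96.7, 101 and 78.7 FPKM in WT libraries, 77.3, 73.4 and 121 in *Per1-/-* libraries and 108, 80.8 and 93.5 in libraries labelled *Per2-/-* on day 0. Day 2 gave 71.6, 75.3 and 88.2 FPKM in WT libraries, 108, 84.9 and 100.1 in *Per1-/-* libraries and 69, 91.6 and 83 in libraries labelled *Per2-/-*. Day 4 gave 91.4, 93.1 and 99.9 FPKM in WT libraries, 132, 102 and 119 in *Per1-/-* libraries and 87.9, 83.8 and 87.4 in libraries labelled *Per2-/-*. Days 0 and 2 overlapped in every genotype, and the log2 fold changes from day 0 to day 2 of -0.23, 0.14 and -0.21 were not called. In WT and in libraries labelled *Per2-/-* their sign was reversed on the common-sum scale (0.20 and 0.12). *Asah1*, acid ceramidase, had lower values in both steps, with log2 fold changes of -0.45, -0.33 and -0.44 and then -0.47, -0.50 and -0.51, all with adjusted p-values under the threshold but under the minimum size. With a common sum the first were -0.01, 0.07 and -0.11, and the second, -0.51, -0.62 and -0.59, were called in *Per1-/-* and in libraries labelled *Per2-/-*. The glycosidases *Gaa* (0.04, 0.17 and 0.02), *Glb1* (0.17, 0.23 and 0.28), *Neu1* (-0.17, 0.12 and -0.02) and *Manba* (-0.09, 0.00 and -0.22) were not called from day 0 to day 2 on the deposited scale. Of these, *Gaa* (0.47, 0.57 and 0.36), *Neu1* (0.26, 0.51 and 0.31) and *Manba* (0.34, 0.39 and 0.10) were not called on the common-sum scale either. The enzymes of heparan sulfate breakdown, *Naglu* (-0.18, 0.08 and -0.10) and *Sgsh* (-0.27, 0.03 and -0.21), and the glucuronidase *Gusb* (-0.39, -0.13 and -0.37) were called on neither scale. *Lgmn*, *Lipa* and *Man2b1* are described with the genotypes.

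Membrane proteins split by gene. *Cd63*, a tetraspanin of late endosomes and exosomes, had 199, 188 and 189 FPKM in WT libraries, 181, 176 and 187 in *Per1-/-* libraries and 187, 189 and 167 in libraries labelled *Per2-/-* on day 0. It had 89.7, 93.9 and 78.4 FPKM in WT libraries, 89.7, 84 and 87.5 in *Per1-/-* libraries and 93.4, 82.6 and 85.7 in libraries labelled *Per2-/-* on day 2. On day 4 the values were 98.9, 99.2 and 93 FPKM in WT libraries, 91.9, 91.7 and 92.3 in *Per1-/-* libraries and 101, 83 and 92.2 in libraries labelled *Per2-/-*. With log2 fold changes of -1.14 ± 0.07, -1.06 ± 0.07 and -1.06 ± 0.07 and adjusted p-values of 1.25e-10, 4.63e-10 and 4.94e-10, it was called lower in all genotypes on both scales, and every day 4 library lay below every day 0 library.

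*Lamp1*, the most abundant glycoprotein of the lysosomal membrane, stood at 468, 505 and 450.0 FPKM in WT libraries, 435, 422 and 529.6 in *Per1-/-* libraries and 537, 435 and 433 in libraries labelled *Per2-/-* on day 0. By day 2 it was at 264, 254 and 310.3 FPKM in WT libraries, 298, 272 and 294 in *Per1-/-* libraries and 271, 303 and 296 in libraries labelled *Per2-/-*. On day 4 it was at 239, 240.0 and 267 FPKM in WT libraries, 297, 249 and 288 in *Per1-/-* libraries and 253, 246 and 232 in libraries labelled *Per2-/-*. No day 2 library reached the day 0 libraries of its genotype. Its log2 fold changes of -0.78 ± 0.10, -0.68 ± 0.10 and -0.69 ± 0.10 (adjusted p = 1.7e-06, 1.15e-05 and 1.09e-05) were called on the deposited scale, without *Per1-/-* day 0 replicate 3 the *Per1-/-* change was -0.57 and not called, and on the common-sum scale the changes were -0.35, -0.28 and -0.35 and not called. *Lamp2* had log2 fold changes of -0.24, -0.13 and -0.39, and *Laptm4a* of 0.12, 0.11 and 0.01, neither called. *Mcoln1*, the lysosomal calcium channel, had -0.49, -0.37 and -0.60 and was called in libraries labelled *Per2-/-*, a call that was lost without day 0 replicate 1 (-0.52), day 2 replicate 1 (-0.57) or day 2 replicate 2 (-0.57), and on the common-sum scale (-0.07, 0.02 and -0.27).

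*Scarb2*, an abundant membrane protein of lysosomes, rose in all genotypes. Its day 0 values were 23.3, 23.6 and 24.2 FPKM in WT libraries, 28.3, 19.6 and 26.1 in *Per1-/-* libraries and 21.7, 25.2 and 19.2 in libraries labelled *Per2-/-*. They were 42.8, 40.2 and 53.3 FPKM in WT libraries, 53.8, 49.9 and 48.4 in *Per1-/-* libraries and 37.6, 55 and 39.6 in libraries labelled *Per2-/-* on day 2. On day 4 they were 32.2, 30.9 and 39.4 FPKM in WT libraries, 36.6, 37 and 38 in *Per1-/-* libraries and 27.8, 36.7 and 25.6 in libraries labelled *Per2-/-*. Day 2 lay above day 0 without overlap in each genotype (log2 fold change 0.93 ± 0.16, 1.05 ± 0.16 and 0.98 ± 0.16, adjusted p = 3.52e-05, 8.15e-06 and 2.04e-05). Day 4 values were below those of day 2 without overlap in each genotype, but the changes of -0.41, -0.44 and -0.55 were not called.

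*Npc1*, which exports cholesterol from lysosomes, had 7.2, 8.36 and 8.53 FPKM in WT libraries, 8.51, 6.75 and 10.1 in *Per1-/-* libraries and 8.98, 8.33 and 8.22 in libraries labelled *Per2-/-* on day 0. On day 2 it had 12.3, 11.9 and 13.8 FPKM in WT libraries, 12.4, 12.8 and 13.1 in *Per1-/-* libraries and 11.7, 12.8 and 11.8 in libraries labelled *Per2-/-*. Day 4 values were 11.4, 9.51 and 12.1 FPKM in WT libraries, 13.5, 11.9 and 12.8 in *Per1-/-* libraries and 10.4, 10.4 and 9.76 in libraries labelled *Per2-/-*. Each day 2 library was above the day 0 libraries of its genotype, and the log2 fold changes of 0.65 ± 0.11, 0.60 ± 0.11 and 0.50 ± 0.11 were called in WT and *Per1-/-* on the deposited scale and in all genotypes on the common-sum scale (1.09, 1.00 and 0.84). The call was lost in WT without day 0 replicate 1 (0.58, just under the minimum size) and in *Per1-/-* without day 0 replicate 2 (0.45). Its soluble partner *Npc2* had log2 fold changes of -0.38, -0.22 and -0.38, not called.

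*Laptm5*, a lysosomal protein of blood cells (chromosome 4, 130913125 to 130936141), was the most variable membrane protein. It stood at 10.7, 5.77 and 6.9 FPKM in WT libraries, 5.48, 10.4 and 32.8 in *Per1-/-* libraries and 20.7, 3.19 and 16.1 in libraries labelled *Per2-/-* on day 0. On day 2 the values were 21.9, 16.4 and 27.6 FPKM in WT libraries, 39.8, 31 and 47.7 in *Per1-/-* libraries and 19, 10.8 and 18 in libraries labelled *Per2-/-*. Those of day 4 were 39.6, 33 and 39.1 FPKM in WT libraries, 81.7, 47.6 and 66.6 in *Per1-/-* libraries and 36.6, 22 and 27.4 in libraries labelled *Per2-/-*. On day 0 the libraries of one genotype differed up to several fold among themselves, and days 0 and 2 overlapped in *Per1-/-* libraries and in those labelled *Per2-/-*. The log2 fold changes from day 0 to day 2 were 1.5 ± 0.55, 1.65 ± 0.55 and 0.59 ± 0.55, with adjusted p-values of 0.0234, 0.0141 and 0.381, called in WT and *Per1-/-*. The WT call was lost without WT day 0 replicate 2 (1.31) or replicate 3 (1.44), or without day 2 replicate 1 (1.49) or replicate 3 (1.32), and the *Per1-/-* call without day 0 replicate 1 (1.07). In libraries labelled *Per2-/-* the change was -0.24 without day 0 replicate 2.

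The summed level of 16 macrophage markers moved with *Laptm5* in WT and *Per1-/-* libraries. Its median was 206, 324 and 487 FPKM on day 0 in WT, *Per1-/-* and libraries labelled *Per2-/-*, 375, 701 and 305 on day 2, and 744, 1989 and 471 on day 4. In libraries labelled *Per2-/-* the median sum was thus lower on day 2 than on day 0, where the log2 fold change of *Laptm5* was positive and not called. The sum weighs abundant markers most, and the highest marker there averaged 225 FPKM on day 0 and 134 on day 2. In that genotype *Cd14* (-0.95), *Lyz2* (-0.66), *Fcgr3* (-0.46) and *C1qc* (-0.30) had negative log2 fold changes in this step, and the other markers positive ones. *Per1-/-* day 0 replicate 3, the day 0 library with the highest *Laptm5*, also had the highest day 0 sum, 1009 FPKM, and replicate 2 labelled *Per2-/-* had the lowest of both, with a sum of 121 FPKM. From day 0 to day 2, 6 of the 16 markers were called higher in WT, 12 in *Per1-/-* and 1 in libraries labelled *Per2-/-*, and none lower. The part of these cells in the level of *Laptm5* was not tested.

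Of the 4 soluble proteins, 1 passed the test on the deposited scale, in 1 genotype. *Grn* had 123, 149 and 124 FPKM in WT libraries, 122, 118 and 174 in *Per1-/-* libraries and 169, 114 and 143 in libraries labelled *Per2-/-* on day 0. Day 2 values were 113, 108 and 132 FPKM in WT libraries, 155, 127 and 154 in *Per1-/-* libraries and 109.7, 125 and 126 in libraries labelled *Per2-/-*. On day 4 they were 128, 124 and 131 FPKM in WT libraries, 201, 144 and 157 in *Per1-/-* libraries and 137, 111 and 132 in libraries labelled *Per2-/-*. Days 0 and 2 overlapped in each genotype, and the log2 fold changes of -0.16, 0.09 and -0.22 were not called and were 0.27, 0.49 and 0.11 on the common-sum scale. *Psap* (-0.11, 0.09 and -0.28) was not called. *Gm2a*, the GM2 activator, had 0.53, 0.83 and 0.51 and was called in *Per1-/-*, where the change without day 0 replicate 2 was 0.56 and not called. It was called higher in all genotypes on the common-sum scale (0.97, 1.23 and 0.85).

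The transcription factors differed among themselves. *Tfeb* had 1.38, 1.55 and 1.45 FPKM in WT libraries, 1.59, 1.37 and 1.64 in *Per1-/-* libraries and 1.97, 1.68 and 1.42 in libraries labelled *Per2-/-* on day 0. By day 2 it had 2.51, 2.6 and 2.42 FPKM in WT libraries, 2.38, 2.15 and 2.16 in *Per1-/-* libraries and 3.17, 2.81 and 2.94 in libraries labelled *Per2-/-*. On day 4 it had 2.92, 2.56 and 2.92 FPKM in WT libraries, 3.05, 2.73 and 2.46 in *Per1-/-* libraries and 3.35, 3.1 and 2.47 in libraries labelled *Per2-/-*. Day 2 lay above day 0 without overlap in each genotype. The log2 fold changes of 0.74 ± 0.12, 0.52 ± 0.12 and 0.79 ± 0.12 (adjusted p = 2.66e-05, 0.00117 and 1.62e-05) were called in WT and in libraries labelled *Per2-/-* on the deposited scale, and in all genotypes on the common-sum scale (1.20, 0.92 and 1.14).

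*Mitf*, the family member known from melanocytes and osteoclasts, had 1.0, 1.02 and 0.652 FPKM in WT libraries, 1.18, 0.775 and 1.31 in *Per1-/-* libraries and 1.31, 1.19 and 1.45 in libraries labelled *Per2-/-* on day 0. Its day 2 values were 1.58, 1.29 and 1.91 FPKM in WT libraries, 2.11, 1.62 and 2.17 in *Per1-/-* libraries and 1.74, 1.54 and 1.99 in libraries labelled *Per2-/-*. It reached 2.14, 1.85 and 1.99 FPKM in WT libraries, 2.82, 2.11 and 2.77 in *Per1-/-* libraries and 2.89, 1.55 and 2.26 in libraries labelled *Per2-/-* on day 4. From day 0 to day 2 the log2 fold changes were 0.78 ± 0.22, 0.82 ± 0.22 and 0.39 ± 0.22 (adjusted p = 0.0044, 0.00316 and 0.141), called in WT and *Per1-/-*. On the common-sum scale all 3 were called, at 1.25, 1.24 and 0.73.

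*Tfe3* stood at 7.66, 8.91 and 8.86 FPKM in WT libraries, 9.18, 7.85 and 8.43 in *Per1-/-* libraries and 7.52, 8.58 and 8.06 in libraries labelled *Per2-/-* on day 0. It was at 6.93, 6.3 and 7.35 FPKM in WT libraries, 6.97, 7.56 and 7.46 in *Per1-/-* libraries and 6.78, 6.5 and 6.71 in libraries labelled *Per2-/-* on day 2. On day 4 it was at 6.43, 6.55 and 7.0 FPKM in WT libraries, 8.03, 6.79 and 8.26 in *Per1-/-* libraries and 6.5, 6.39 and 6.58 in libraries labelled *Per2-/-*. Its log2 fold changes of -0.30, -0.21 and -0.27 on the deposited scale were under the minimum size and had the opposite sign on the common-sum scale (0.13, 0.19 and 0.06), so that no direction can be given. *Tfe3* remained the most abundant of the 3 factors in every library.

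Other genes of the pathway, which are not members, are given by list. Of 58 tested genes in 4 lists, 7, 13 and 5 were called higher from day 0 to day 2 in WT, *Per1-/-* and libraries labelled *Per2-/-* on the deposited scale, beside 20.8%, 20.8% and 18.7% of all genes. On that scale 19, 13 and 19 were called lower, beside 19.7%, 18.8% and 16.8%. With a common sum 18, 18 and 14 of the 58 were called higher, beside 37.6%, 35.9% and 31.2% of all genes. Another 4, 1 and 5 were called lower, beside 8.38%, 7.94% and 8.49%. On the deposited scale, among 23 other hydrolases, 1, 6 and 1 were higher and 7, 4 and 6 lower. *Galc*, galactosylceramidase (-1.14, -0.82 and -1.16), was called lower in all genotypes, and in WT and libraries labelled *Per2-/-* on the common-sum scale (-0.74, -0.45 and -0.87). *Arsb*, arylsulfatase B (0.96, 0.94 and 0.73), was called higher on both scales in all genotypes. Among 15 tested membrane proteins and accessories, 2, 3 and 0 were higher and 5, 5 and 6 lower, and the V-ATPase accessory subunits *Atp6ap1* (-0.74, -0.60 and -0.70) and *Atp6ap2* (-0.90, -0.74 and -0.98) were called lower in all genotypes. Rescaled to a common sum, *Atp6ap1* (-0.31, -0.20 and -0.37) was called in none and *Atp6ap2* (-0.47, -0.35 and -0.65) in libraries labelled *Per2-/-*. Of 6 genes of mannose 6-phosphate sorting, *M6pr*, the cation-dependent receptor, was lower (-0.89, -0.76 and -0.87) and *Sort1*, sortilin, higher (2.37, 2.33 and 2.31) in all genotypes. Of the pair, *Sort1* was called in all genotypes on the common-sum scale and *M6pr* (-0.45, -0.36 and -0.54) in none. In the list of Ragulator, Rag and folliculin genes, by which lysosomes signal nutrients to mTORC1, 2 of 14 were higher in each genotype, the Rag GTPases *Rragb* (1.63, 1.30 and 1.08) and *Rragd* (1.02, 1.03 and 1.10), and 5, 3 and 5 were lower. Both Rag genes were also called higher in all genotypes on the common-sum scale.

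From day 2 to day 4 only 1 member passed the test. *Atp6v0d2* was the one member called higher in WT (beside 1.62% of all genes), in *Per1-/-* (1.38%) and in libraries labelled *Per2-/-* (2.32%). No member was called lower, beside 1.59%, 1.06% and 1.74% of all genes, and 10, 12 and 10 of the 45 had an unadjusted p under 0.05 in either direction. The share of all genes under that unadjusted p is not given, so that these last counts are no result about the members. The median log2 fold change of the 45 members was 0.12, 0.06 and 0.06. *Atp6v0d2* entered the test through day 4, the day on which it was high. Its mean over all libraries was 1.20 FPKM, but every day 2 library and some of day 0 were below the minimum of 0.5 FPKM. With all genes above 0 tested, a setting without this minimum, *Atp6v0d2* was also called higher from day 2 to day 4 in each genotype.

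*Atp6v0d2* encodes the d2 subunit, which joins the rotor of V0 to that of V1 and is best known from osteoclasts and macrophages (chromosome 4, 19876841 to 19922605). On day 0 it had 0.851, 0.303 and 0.22 FPKM in WT libraries, 0.266, 0.526 and 1.52 in *Per1-/-* libraries and 0.836, 0.449 and 0.599 in libraries labelled *Per2-/-*. Day 2 values were 0.171, 0.192 and 0.152 FPKM in WT libraries, 0.142, 0.227 and 0.481 in *Per1-/-* libraries and 0.149, 0.113 and 0.169 in libraries labelled *Per2-/-*. On day 4 they were 4.22, 4.42 and 0.985 FPKM in WT libraries, 3.11, 1.47 and 1.62 in *Per1-/-* libraries and 5.62, 1.32 and 2.37 in libraries labelled *Per2-/-*. Every day 4 library lay above all 9 day 2 libraries, and the spread on day 4 was wide, since WT replicate 3 was at 0.985 FPKM and the other 2 above 4. The log2 fold changes from day 2 to day 4 were 3.35 ± 0.59, 2.52 ± 0.59 and 3.48 ± 0.59 (adjusted p = 0.00259, 0.0202 and 0.00198). The *Per1-/-* call was lost without *Per1-/-* day 2 replicate 1 (2.23), day 2 replicate 2 (2.45) or day 4 replicate 1 (2.19), and with voom weights on fragments (2.96, adjusted p = 0.0582). With a pseudocount of 1 in place of 0.1 the changes were 1.71, 1.23 and 1.70, all called, so that their size rests on the constant added to low values. Between days 0 and 2 its changes were -0.88, -1.0 and -1.55, and the one call, in libraries labelled *Per2-/-*, was lost when any one of 5 of the 6 libraries was left out.

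Its partner isoform *Atp6v0d1* supplied most d subunit transcript. It had 92.1, 94.6 and 88.9 FPKM in WT libraries, 85.1, 74.5 and 108 in *Per1-/-* libraries and 106, 86.3 and 79.7 in libraries labelled *Per2-/-* on day 0. On day 2 its values were 56.1, 55.2 and 59.3 FPKM in WT libraries, 62.5, 60.2 and 64.9 in *Per1-/-* libraries and 59.2, 59.4 and 64 in libraries labelled *Per2-/-*. They were 65.1, 62.4 and 66.3 FPKM in WT libraries, 67.1, 58.1 and 63.1 in *Per1-/-* libraries and 61.9, 60.4 and 51.5 in libraries labelled *Per2-/-* on day 4. It was called lower from day 0 to day 2 in WT only, at -0.69, -0.49 and -0.57, and was not called from day 2 to day 4 (0.18, 0.00 and -0.08). Neither the WT call nor another was made on the common-sum scale (-0.26, -0.10 and -0.24 for the first step). The share of *Atp6v0d2* in the pair rose from 0.301 ± 0.0457% on day 2 to 4.72 ± 2.83% on day 4 in WT, from 0.446 ± 0.262% to 3.13 ± 1.13% in *Per1-/-* and from 0.235 ± 0.0390% to 4.95 ± 3.13% in libraries labelled *Per2-/-*. The log2 ratio of the pair rose by 3.67 from day 2 to day 4 (two-sided exact permutation p = 0.00025, the smallest possible, adjusted p = 0.0005), after a change of -0.93 from day 0 to day 2 (exact p = 0.0195, adjusted p = 0.0264).

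The median macrophage sum was also higher on day 4 than on day 2 in every genotype, at 744 against 375 FPKM in WT, 1989 against 701 in *Per1-/-* and 471 against 305 in libraries labelled *Per2-/-*. All 16 markers had a positive log2 fold change in this step in each genotype, and 0, 0 and 1 (*Adgre1*, a receptor of macrophages) were called. *Atp6v0d2* was not called between genotypes on day 4, and its values overlapped among them. The part of these cells in the level of *Atp6v0d2* was not tested. Mean *Atp6v0d2* on day 4 was 3.21 ± 1.93 FPKM in WT, 2.07 ± 0.911 in *Per1-/-* and 3.1 ± 2.24 in libraries labelled *Per2-/-* (SD, n = 3), and the macrophage sum was 515 to 1002, 1127 to 2015 and 402 to 725 FPKM. Of the other pathway genes, *Acp5*, the tartrate-resistant acid phosphatase of osteoclasts and macrophages, was called higher from day 2 to day 4 in WT and in libraries labelled *Per2-/-* (2.20, 1.27 and 2.43), and *Sort1* was called lower in the same 2 genotypes (-0.87, -0.72 and -1.07). Of all 58 pathway genes, 1, 2 and 1 were called higher and 1, 1 and 1 lower.

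The genotypes were then compared on each day. Only 1 member was called in any of the 9 comparisons: *Lgmn* was higher in *Per1-/-* than in libraries labelled *Per2-/-* on day 4, beside 0.556% of all genes in either direction. For *Per1-/-* against WT the members called were 0 on day 0 (0.0134% of all genes), day 2 (0.0067%) and day 4 (0.0268%), with 2, 4 and 10 at an unadjusted p under 0.05. For *Per1-/-* against libraries labelled *Per2-/-* they were 0 on day 0 (0.0201%) and on day 2 (0.0737%), with 1 and 7 at an unadjusted p under 0.05. On day 4, where *Lgmn* was called, 19 of the 45 members had an unadjusted p under 0.05. For libraries labelled *Per2-/-* against WT they were 0 on days 0, 2 and 4 (0.0067%, 0.0268% and 0.0067%), with 2, 0 and 2. The share of all genes under the unadjusted threshold is not given, and the unadjusted counts alone are no result about the members. The voom fit called 2 members, *Lgmn* and *Man2b1*, for *Per1-/-* against libraries labelled *Per2-/-* on day 4. The authors, with DESeq2 at the same thresholds, report many more genes higher in *Per1-/-* than in both other genotypes on days 2 and 4. They describe these genes as enriched for immune response, phagocytosis and lysosome. The small counts here are those of this fit and do not show that the genotypes were alike. The reason for the difference was not tested.

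*Lgmn*, legumain, is the asparaginyl endopeptidase that processes antigens and other proteases (chromosome 12, 102394084 to 102439813). On day 0 it stood at 68.6, 69.5 and 57.2 FPKM in WT libraries, 61.9, 51.9 and 102 in *Per1-/-* libraries and 87.3, 63.4 and 72.8 in libraries labelled *Per2-/-*. On day 2 it was at 64.1, 53 and 64.2 FPKM in WT libraries, 81, 76.4 and 108 in *Per1-/-* libraries and 56.2, 41.5 and 58.7 in libraries labelled *Per2-/-*. Day 4 values were 89.6, 77.4 and 85.5 FPKM in WT libraries, 156, 106 and 135 in *Per1-/-* libraries and 76, 58.7 and 80.1 in libraries labelled *Per2-/-*. All *Per1-/-* libraries were above all others on days 2 and 4 and overlapped them on day 0. On day 4 the log2 fold change was 0.88 ± 0.21 against libraries labelled *Per2-/-* (adjusted p = 0.0488) and 0.64 ± 0.21 against WT (adjusted p = 0.57). The call was fragile: it was lost on the common-sum scale (0.79, adjusted p = 0.168) and without *Per1-/-* day 4 replicate 1 (0.75) or replicate 3 (0.86), or replicate 1 (0.93), 2 (0.74) or 3 (0.97) labelled *Per2-/-*. Without *Per1-/-* day 4 replicate 2 it was kept.

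Below the threshold, more members were higher than lower in *Per1-/-* libraries on days 2 and 4. On day 4, 17 of the 45 members (37.8%) had all 3 *Per1-/-* libraries above all 3 labelled *Per2-/-*, against 11% of all genes, and 12 (26.7%) had them above all 3 WT libraries, against 7.98%. On day 2 the counts were 12 (26.7%, against 8.59%) and 11 (24.4%, against 5.26%). These comparisons share the *Per1-/-* libraries. In the reverse direction, 0 members (against 8.18% of all genes) and 1 (6.59%) were below libraries labelled *Per2-/-* and WT on day 4, and 1 (7.5%) and 1 (5.02%) on day 2. *Laptm5*, *Lgmn*, *Man2b1* and *Gla* were above both other groups on both days, and *Lipa*, *Npc2*, *Grn*, *Hexa*, *Gusb*, *Naglu* and *Atp6v1a* were above both on day 4. The median log2 fold change of the 45 members on day 4 was 0.22 against libraries labelled *Per2-/-* and 0.09 against WT, where that of all genes was 0.00 and -0.01, and on day 0 the medians were -0.03 and -0.02. On the common-sum scale the day 4 medians were 0.14 and -0.05, with -0.09 and -0.14 over all genes.

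By role, enzymes and their soluble partners had the larger medians, a difference that was not tested. Against libraries labelled *Per2-/-* on day 4, the median over the 13 enzymes was 0.35, over the 4 soluble proteins 0.34 and over the 17 V-ATPase subunits 0.16. *Man2b1*, lysosomal alpha-mannosidase, had 29.8, 26.4 and 31.6 FPKM in *Per1-/-*, 21.7, 18.3 and 22.7 in WT and 19.9, 16.6 and 18.5 in libraries labelled *Per2-/-* (0.67 ± 0.19 against the latter, adjusted p = 0.101). *Lipa*, the acid lipase that frees cholesterol from its esters, had 62, 56.7 and 76.7 FPKM in *Per1-/-*, 51.8, 44.8 and 54.2 in WT and 50.2, 40.4 and 44.9 in libraries labelled *Per2-/-* (0.52 ± 0.17, adjusted p = 0.167). *Npc2* had 57.7, 50.9 and 55.2 FPKM in *Per1-/-*, 44.9, 43.7 and 47.6 in WT and 39.5, 41.3 and 42.5 in libraries labelled *Per2-/-* (0.41 ± 0.10, adjusted p = 0.056). In each case the *Per1-/-* values were highest without overlap, and none of the 3 differences passed the threshold. *Laptm5* had the largest difference, 1.18 ± 0.55, and a wide error (adjusted p = 0.356). This error draws on the spread within all 9 groups, day 0 included, and is not the spread of day 4 alone. On day 4 all *Per1-/-* libraries lay above all those labelled *Per2-/-*. The members with all *Per1-/-* libraries below the others were *Tfeb* on day 2, against WT and libraries labelled *Per2-/-*, and *Cd63* on day 4, against WT.

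Macrophage markers moved the same way. All 16 had a positive log2 fold change in *Per1-/-* against each other group on days 2 and 4. The medians on day 4 were 1.56 on the log2 scale against libraries labelled *Per2-/-* and 1.06 against WT. None was called in these comparisons by this fit, whereas the authors report macrophage genes among those higher in *Per1-/-*. In *Per1-/-* day 4 replicate 2, which had the lowest *Laptm5*, *Lgmn*, *Lipa* and *Man2b1* of its group, the macrophage sum was 1127 FPKM, also the lowest of the group. This library also had the fewest fragments of all, 15815013, and the highest FPKM sum over all genes of the day 4 libraries, 343225. The part of macrophages in the higher lysosomal transcripts was not tested, and no subunit of the V-ATPase passed the threshold between genotypes.

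**Figure D4:**
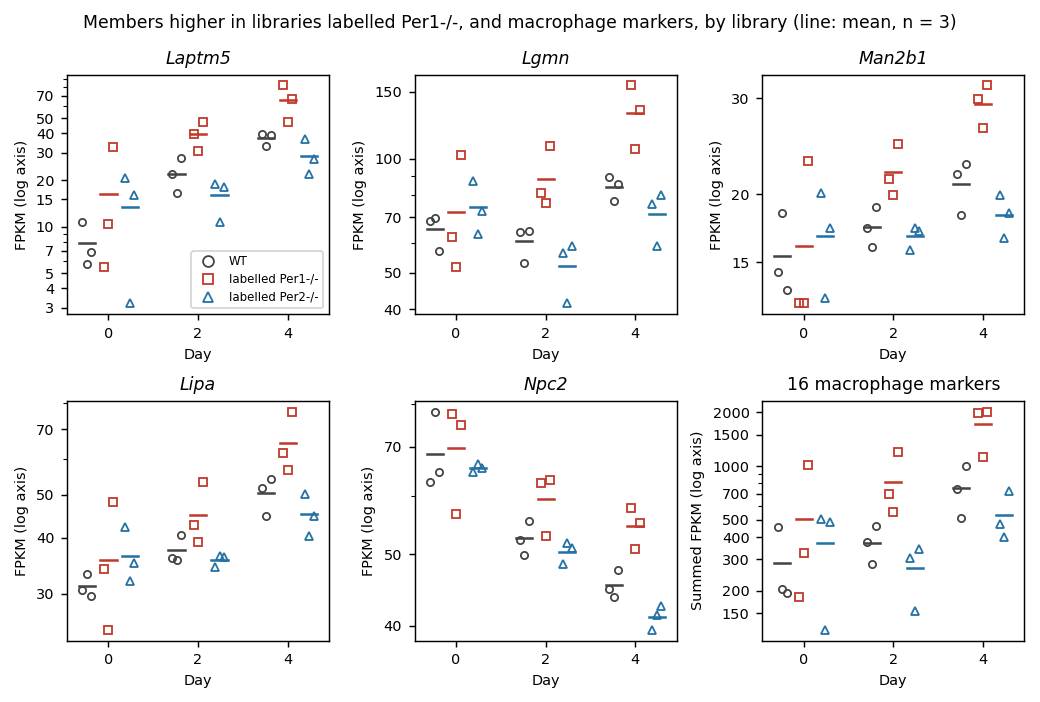
FPKM on logarithmic axes of *Laptm5*, *Lgmn*, *Man2b1*, *Lipa* and *Npc2*, and the summed FPKM of 16 macrophage markers, in each of the 27 libraries by day, with a line at the mean of each group of 3. On day 4 the *Per1-/-* libraries are above all others in each panel, with *Lgmn* at 106 to 156 FPKM against 58.7 to 89.6 in the other 6 libraries, and on day 0 they overlap the others.

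The changes over days were also compared between genotypes, by an interaction term. No member was called for the change from day 0 to day 2 or from day 2 to day 4 in *Per1-/-* against WT, beside 0% of all genes in both, or in libraries labelled *Per2-/-* against WT, beside 0% and 0.0067%. At an unadjusted p under 0.05 there were 2 members (*Atp6v1c1* and *Atp6v1g2*) for the first step in *Per1-/-* and 0 in the other 3 contrasts. The different numbers of calls in the genotypes are therefore not shown to be different changes.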

How the data were processed

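RNA of 27 libraries (9 groups of genotype and day, 3 libraries each) was sequenced by the authors as unstranded paired-end poly-A libraries, so that sense and antisense transcripts cannot be told apart. Per the labels, HISAT2 2.0.5, featureCounts 1.5.0-p3 and the mm10 build were used. The authors deposited FPKM values per gene with gene lengths and coordinates, and no raw counts. Fragments were recovered from the FPKM steps, and 100% of values came out whole within a tolerance of 0.01. Depth was 15815013 to 24264097 fragments per library.

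Values were tested as log2(FPKM + 0.1) for 14932 genes, those averaging 0.5 FPKM or more over all libraries, in 1 limma fit over the 9 groups (limma 3.58.1 in R 4.3.3) with Benjamini-Hochberg adjustment over all of them. Fold changes on this scale understate the changes of low genes. The standard error of a gene drew on the spread within all 9 groups. Wide scatter on day 0 thus widened the errors of the other days too. The threshold was 0.05 for the adjusted p, with a minimum of 0.58 on the log2 scale in either direction. The script was tested on simulated data. Isoform ratios were tested by exact permutation of days within genotypes. Tables and plots were made with Python 3.11.15, pandas 2.3.3, numpy 2.4.6 and matplotlib 3.10.9.

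The members, the gene lists and the tests were chosen with earlier results of these data known. Values in every library are given for members called between genotypes, for up to 4 members of largest mean change in each direction among those called in all 3 genotypes at a step between days, for *Lamp1*, *Laptm5*, *Hexa*, *Grn*, *Npc1*, *Tfeb*, *Tfe3* and *Mitf*, and for the V-ATPase isoform sets a, d, e, B, C, E and G. Isoforms under the minimum level and *Tcirg1* are given by range or share. *Lipa*, *Man2b1*, *Npc2* and *Atp6v1d* were described further after their values were seen.

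Alternatives were a pseudocount of 1, all 36800 genes above 0, voom weights on the recovered fragments, scaling to a common sum (TPM), no minimum fold change, a replicate block and leaving out each library. Scaling to a common sum without genes under 200 bases, the isoform ratio tests and the counts of members with all *Per1-/-* libraries above all others were added after the data were seen.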

Additional observations from a re-analysis of the deposited data

How the results depend on the processing

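Scaling decided most counts of members from day 0 to day 2. With a common sum, with or without genes under 200 bases, 11, 12 and 8 members were called higher and 2, 2 and 3 lower in WT, *Per1-/-* and libraries labelled *Per2-/-*, and 24 of 52 called results of single members were no longer called. With all genes in the sum, *Asah1* was called lower from day 2 to day 4 in *Per1-/-* (1 member) and *Asah1* and *Scarb2* (2 members) in libraries labelled *Per2-/-*. The call of *Lgmn* between *Per1-/-* and libraries labelled *Per2-/-* on day 4 gave 0 members with all genes above 0 and with either common sum, and 2, with *Man2b1* added, with voom weights. Voom weights gave 0 members higher from day 2 to day 4 in *Per1-/-*. Without a minimum fold change, 22, 19 and 26 members were called lower from day 0 to day 2, and 3, 3 and 2 higher and 1, 1 and 2 lower from day 2 to day 4. The share of all genes called at this setting is not given, so that these counts are no result about the members. A pseudocount of 1 lost 9 of the 52 calls. With 1 library left out, 33 of 312 repeats lost a call. The counts from day 0 to day 2 then ranged from 6 to 7 higher and 13 to 14 lower in WT, 5 to 10 and 4 to 9 in *Per1-/-*, and 4 to 5 and 6 to 13 in libraries labelled *Per2-/-*. From day 2 to day 4 they ranged from 1 to 2 higher in WT, 0 to 2 higher in *Per1-/-*, and 1 to 1 higher and 0 to 2 lower in libraries labelled *Per2-/-*, and for *Per1-/-* against libraries labelled *Per2-/-* on day 4 from 0 to 2. No called result reversed its sign. Genes under about 1 FPKM rest on few fragments, which limits *Atp6v0d2* on days 0 and 2 and *Atp6v1g2* on day 0.

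Replicate numbers are shared by the groups, but nothing in the labels pairs the samples. Deviations from the group mean of libraries with one number correlated with r of -0.02 to 0.29 between days of a genotype (above 0.1 in 14 of 27 pairs) and of -0.26 to 0.19 between genotypes on a day (above 0.1 in 3 of 27), so that the number was not taken as pairing. Own numbers correlated best in 48 of 54 checks between days, so that pairing between days within a genotype remains possible. The unpaired tests between days do not use such a pairing. The share of *Atp6v0e2* in its pair was lower on day 4 than on day 2 in 9 of 9 same-numbered pairs. The replicate block gave 1 member, *Atp6v0e2*, lower from day 2 to day 4 in libraries labelled *Per2-/-*, against 0, and changed no other count of members.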

Other observations

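A few genes of osteoclasts, outside the lists or chosen after their values were seen, had their highest group means on day 4 in each genotype, as *Atp6v0d2* had. *Dcstamp* and *Ocstamp*, which act in the fusion of osteoclast precursors, were at or below 0.0386 and 0.0550 FPKM in all libraries of days 0 and 2. On day 4 *Dcstamp* had 0.643, 0.759 and 0.134 FPKM in WT libraries, 0.438, 0.184 and 0.0989 in *Per1-/-* libraries and 0.808, 0.125 and 0.141 in libraries labelled *Per2-/-*. *Ocstamp* had 0.293, 0.958 and 0.0366 FPKM in WT libraries, 0.319, 0.168 and 0.072 in *Per1-/-* libraries and 0.466, 0.17 and 0.218 in libraries labelled *Per2-/-* on that day. *Acp5* had 0.685, 0.456 and 0.71 FPKM in WT libraries, 0.718, 0.759 and 0.595 in *Per1-/-* libraries and 0.697, 0.606 and 0.654 in libraries labelled *Per2-/-* on day 2 and 5.41, 7.26 and 0.746 FPKM in WT libraries, 3.73, 1.63 and 0.93 in *Per1-/-* libraries and 7.27, 3.24 and 2.62 in libraries labelled *Per2-/-* on day 4. In WT, replicate 3 had the lowest day 4 value of all 3 genes and of *Atp6v0d2*. In libraries labelled *Per2-/-*, replicate 1 had the highest of all 4. Not every gene used by osteoclasts had its highest mean on day 4. *Tcirg1*, the a3 isoform, had its highest group mean on day 0 in each genotype. Its means were 20.7, 22.5 and 20.3 FPKM on day 0 in WT, *Per1-/-* and libraries labelled *Per2-/-*, and 16.3, 18.6 and 15.4 on day 4. No test was made of these values as a group.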
